A study of Mus musculus with 36 samples.

Results

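The Hes and Hey family of basic helix-loop-helix repressors was followed as 7 genes, Hes1, Hes5, Hes6, Hey1, Hey2, Heyl and Helt, taken by symbol from a deposited table of 19909 genes. All 7 symbols were found, each in 1 row. The 36 RNA libraries of the table all trace back to C57BL/6 mice that were 8 weeks old. For 28 of them, cells were sorted by flow cytometry straight from homogenized tissue of the subependymal zone (SEZ), where the adult brain forms new neurons along the lateral ventricles. These carry the labels qNSC, pNSC, aNSC and NPC1 (4 libraries each) and NPC2, NB1, NB2 and Other (3 libraries each). The other 8 came from neurospheres, floating colonies grown from SEZ cells in EGF and FGF, which at passage 4 were loaded with 2 ug/ml of the tracer dye DFFDA, grown for 4 more days and sorted into DFFDA_H and DFFDA_L (4 libraries each), which the study describes as differing in proliferative kinetics. No genetic change or other treatment is named for any group. The sorting gates are not given in these labels. Replicates are labelled biological but are not tied to separate animals or cultures, so each p-value measures the spread between these samples, which may be technical.

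Hes and Hey proteins bind DNA as dimers and silence genes that drive neuronal differentiation, among them those of proneural factors. Most are induced when a Notch receptor meets a Delta or Jagged ligand on a neighbouring cell, is cut, and sends its inner part to the nucleus to join the DNA-binding protein RBPJ. In the adult SEZ, Notch signalling is known for keeping stem cells undifferentiated. Hes1 and Hes5 are the main effectors of the pathway in neural stem cells, and Hey1, Hey2 and Heyl are related effectors also known from vessels and heart. Hes6 differs, since it opposes Hes1 and favours differentiation, and Helt is known from the midbrain, where it promotes the GABAergic neuronal fate.

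Levels are deposited log2 values, on which 1 unit is a doubling. In each library, 2 raised to these values summed to between 987637 and 987910, so the scale resembles CPM. It is not corrected for gene length, so levels are compared between libraries and not between genes. Each library has a floor, a lowest value shared by 362 to 3932 genes, at log2 -5.06 to -2.18. The low values rise from it in steps, and the number of steps resembles a read count. The gene with the median level stood 55 to 426 steps above the floor, and values below about log2 0 rest on few steps. Marker lists describe the groups here, but they were chosen with earlier results of these data known and are no independent check of the labels. The summed level (2 raised to the log2 value) of 10 astroglial markers was 24526 to 26345 in qNSC and 21398 to 25939 in pNSC, against 1648 to 3250 in aNSC and at most 955 in the NPC and NB libraries. The 7 markers of activated stem cells and progenitors summed to 3126 to 3562 in aNSC, 2283 to 2698 in NPC1, 2661 to 2965 in NPC2 and 1569 to 1722 in NB1. The 9 neuroblast markers summed to 9395 to 9930 in NB2 and to 6257 to 9054 in Other. All 10 endothelial markers were at log2 0 or above in every Other library, where they summed to 839 to 2379, while in no group of the rest did the sum pass 20.3.

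**Figure D1:**
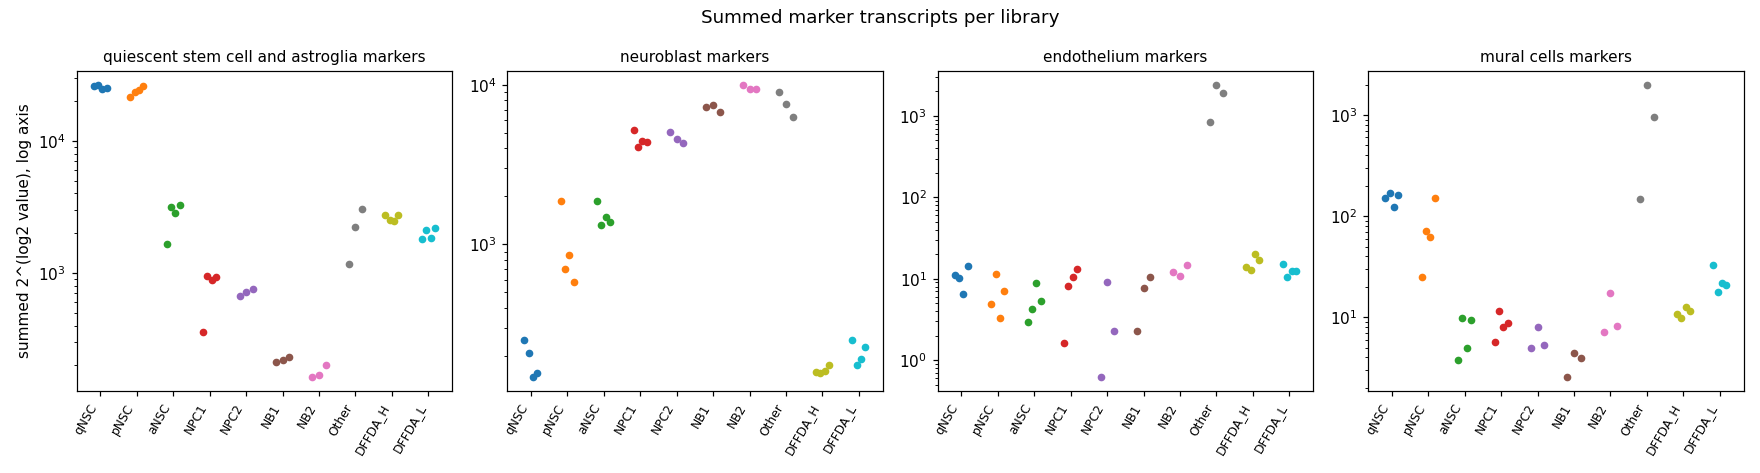
Summed level of 4 marker lists (2 raised to the deposited log2 value, log axis) in each of the 36 libraries, with 1 point for each library and the populations along the horizontal axis. Astroglial markers summed to 24526 to 26345 in qNSC, and endothelial markers to 839 to 2379 in Other.

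RefSeq promoter windows (GRCm38.p6) were at hand for 4 of the 7 genes, and are printed because the members fell into genes with opposite courses, Hes5 and Hey2 high at the qNSC end and Hes6 and Helt high in the aNSC and NPC groups. Each line runs 5′ to 3′ on the gene's own strand, from 250 bases before the RefSeq start to 10 bases after it. Capitals mark TGGGAA, the core that RBPJ is known to bind, and CACNAG (the N box) or CACGNG (the class C site), which Hes proteins are known to bind, on either strand.
Hes5, chr4:154960673-154960932 (+): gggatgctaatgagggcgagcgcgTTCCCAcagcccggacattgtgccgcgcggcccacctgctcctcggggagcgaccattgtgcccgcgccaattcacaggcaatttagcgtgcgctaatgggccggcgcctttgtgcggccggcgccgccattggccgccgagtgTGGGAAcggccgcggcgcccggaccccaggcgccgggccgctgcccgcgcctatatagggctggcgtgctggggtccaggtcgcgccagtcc
Hey2, chr10:30842774-30843033 (-): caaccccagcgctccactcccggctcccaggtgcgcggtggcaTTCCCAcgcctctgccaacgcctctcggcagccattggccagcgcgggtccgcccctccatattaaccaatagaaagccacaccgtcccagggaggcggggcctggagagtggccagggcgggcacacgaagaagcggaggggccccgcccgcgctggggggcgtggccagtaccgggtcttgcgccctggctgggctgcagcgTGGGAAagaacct
Hes6, chr1:91414029-91414288 (-): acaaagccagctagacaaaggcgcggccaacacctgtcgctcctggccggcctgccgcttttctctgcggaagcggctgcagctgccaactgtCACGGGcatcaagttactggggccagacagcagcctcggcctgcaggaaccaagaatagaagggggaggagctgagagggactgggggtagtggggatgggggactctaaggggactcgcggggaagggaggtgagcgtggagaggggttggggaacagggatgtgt
Helt, chr8:46294662-46294921 (-): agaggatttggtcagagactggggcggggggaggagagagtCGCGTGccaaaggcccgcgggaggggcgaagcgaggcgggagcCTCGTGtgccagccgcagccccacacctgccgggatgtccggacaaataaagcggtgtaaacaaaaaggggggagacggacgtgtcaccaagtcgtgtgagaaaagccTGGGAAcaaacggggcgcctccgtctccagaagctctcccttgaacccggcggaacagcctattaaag
The Hes5 and Hey2 windows each held 2 copies of the longer RBPJ form GTGGGAA, 1 on each strand. In Hes5 they began at bases -83 and -226 from the start, and in Hey2 at -4 and -207. Neither window held CACNAG or CACGNG. Over the full windows of 250 bases before and 50 after the start, TGGGAA stood in 25.6% of 32851 mouse windows and GTGGGAA in 6.38%. The Helt window had 1 TGGGAA at -58, 1 CGCGTG at -209, and at -166 a CTCGTG that reads as both CACNAG and CACGNG on the other strand. Neither of the 2 Hes6 windows held TGGGAA. The printed one had CACGGG at -157, and the other, chr1:91413173-91413472, had CACNAG matches at -237 and 16. CACNAG was found in 42.5% and CACGNG in 27.5% of all windows. The general E box CANNTG, found in 72.3%, was present once in the Hes5, Hey2 and Helt windows and 3 times in the printed Hes6 window. These matches describe letters in a window and do not show binding.

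Hes1 (chr16:30064384-30067796, plus strand, GRCm38) was high in the libraries labelled as stem cells and in culture and close to the floor in the NB libraries. Its log2 values were 5.13, 5.40, 5.35 and 5.57 in qNSC, 4.83, 5.33, 5.31 and 5.33 in pNSC, and 3.25, 3.62, 4.17 and 4.18 in aNSC. They were -0.60, 1.98, 1.84 and 1.88 in NPC1, -0.15, 1.04 and 1.58 in NPC2, -4.56, -0.33 and 0.10 in NB1, and -1.61, -2.26 and -0.63 in NB2. The NPC1 library of replicate 1 lay far below the other 3, and the NB1 library of replicate 1 was at the floor. Other had 3.78, 5.55 and 5.39. Culture gave the highest levels, 6.68, 7.38, 7.68 and 7.11 in DFFDA_H and 6.66, 6.31, 7.03 and 6.79 in DFFDA_L. Ordered by group mean, library ranges separated DFFDA_L from qNSC, aNSC from NPC1, and NPC2 from NB2, while the 6 remaining neighbouring pairs overlapped.

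Hes5 (chr4:154960923-154962371, plus strand), the second main Notch effector, had log2 values of 7.03, 7.37, 7.54 and 7.56 in qNSC, 7.51, 7.89, 7.71 and 7.73 in pNSC, and 5.54, 5.89, 6.51 and 6.31 in aNSC. They were 3.53, 4.69, 4.83 and 4.83 in NPC1, 3.91, 4.55 and 4.76 in NPC2, 1.92, 2.12 and 1.82 in NB1, and 1.49, 0.71 and 1.21 in NB2. Along the sorted groups Hes5 was thus lower at aNSC, at NPC1, at NB1 and at NB2 than just before, with no overlap of libraries at these steps. Unlike Hes1, it was low in culture, with 2.56, 2.81, 3.23 and 2.14 in DFFDA_H and 2.38, 1.85, 2.45 and 1.93 in DFFDA_L. Other had 2.43, 3.68 and 4.26. The gene overlaps the antisense gene Gm20421, and the library kit does not mark strand, so reads of the overlap cannot be told apart.

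Hey1 (chr3:8663359-8667256, minus strand) had log2 values of 6.56, 6.22, 6.19 and 6.13 in qNSC, 5.09, 5.34, 6.22 and 5.69 in pNSC, and 3.79, 3.86, 4.08 and 3.79 in aNSC. They were 2.53, 2.64, 2.96 and 2.90 in NPC1, 3.06, 3.35 and 2.99 in NPC2, 2.28, 0.89 and 1.87 in NB1, and 1.61, 1.301 and 0.57 in NB2. Its culture levels overlapped or passed those of qNSC, with 7.06, 6.99, 7.17 and 6.80 in DFFDA_H and 6.29, 6.49, 6.20 and 6.27 in DFFDA_L. All 4 DFFDA_H libraries lay above all 4 DFFDA_L libraries, and the DFFDA_L range overlapped that of qNSC. Other had 2.47, 3.20 and 1.73.

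Hey2 (chr10:30832359-30842801, minus strand) followed a similar course in the tissue at lower values. Its log2 values were 4.15, 3.75, 4.22 and 4.14 in qNSC, 3.35, 4.11, 3.51 and 3.38 in pNSC, and 2.02, 2.67, 2.64 and 2.66 in aNSC. In NPC1 they were -0.31, -0.64, 0.65 and 0.97, in NPC2 0.28, 1.57 and 0.81, in NB1 -2.04, -0.04 and -2.43, and in NB2 -0.54, 0.21 and -3.61. Below aNSC, neighbouring groups in the order of means overlapped throughout, except that aNSC itself stood apart from NPC2. Culture gave the 2 lowest group means for Hey2, with -3.61, -2.21, -4.23 and -2.50 in DFFDA_H and -2.60, -1.80, -1.47 and -2.02 in DFFDA_L. These stood 2 to 12 steps above the floor in DFFDA_H and 8 to 20 in DFFDA_L. The NB values stood at similar steps, 2 to 12 in NB1 and 1 to 16 in NB2. Other had -1.25, 1.196 and -0.20.

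Heyl (chr4:123233556-123249875, plus strand), known from arterial smooth muscle as a Notch target, was lower in every pNSC library than in any qNSC library. Its log2 values were 4.35, 4.70, 3.74 and 4.81 in qNSC, 1.58, 2.57, 2.90 and 3.47 in pNSC, and -0.64, 1.25, -0.83 and 1.06 in aNSC, so that qNSC lay above every other group except for 1 Other library. In NPC1 they were -3.29, -2.08, -1.59 and -0.01, in NPC2 -4.31, -4.24 and -3.23, in NB1 -4.56, -4.75 and -0.45, and in NB2 -2.83, -1.90 and -2.78. Culture gave -4.47, -2.84, -4.71 and -5.06 in DFFDA_H and -4.60, -5.06, -3.96 and -4.75 in DFFDA_L. Of the 36 libraries, 6 were at the floor for Heyl, all in NPC2, NB1 or culture. Other had 1.01, 4.09 and 2.29.

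Hes6 (chr1:91411483-91414038, minus strand), which opposes Hes1, ran the other way. Its log2 values were 6.15, 6.10, 6.38 and 6.24 in qNSC, 8.19, 7.68, 7.89 and 7.33 in pNSC, and 10.19, 9.998, 10.13 and 10.07 in aNSC. They were 9.71, 9.90, 9.998 and 9.90 in NPC1, 10.15, 10.43 and 10.38 in NPC2, 8.11, 8.31 and 8.76 in NB1, and 8.25, 7.89 and 7.87 in NB2. The aNSC and NPC groups thus formed a plateau that no library of another group reached, and qNSC lay below every other group. Other had 8.49, 8.65 and 8.77. Culture lay between qNSC and the plateau, with 7.32, 7.37, 7.29 and 7.41 in DFFDA_H and 7.08, 6.92, 6.92 and 7.06 in DFFDA_L.

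Helt (chr8:46292039-46294671, minus strand) had the widest span of group means. Its log2 values were -2.18, -0.50, -4.19 and -0.59 in qNSC, 3.65, 2.74, 2.93 and 2.95 in pNSC, and 6.32, 5.79, 6.12 and 5.88 in aNSC. They stayed at 5.71, 6.36, 6.16 and 6.07 in NPC1 and at 5.58, 6.03 and 5.83 in NPC2, then were 3.84, 3.93 and 4.25 in NB1 and -2.83, -0.06 and -2.78 in NB2. Both ends of the labelled sequence were therefore near the floor, with 2 qNSC libraries exactly at it and the 3 NB2 libraries 1, 13 and 2 steps above it. In culture Helt was at the floor in 3 DFFDA_H and 2 DFFDA_L libraries and 1 step above it in the others. Other had 0.91, 2.74 and 2.87.

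**Figure D2:**
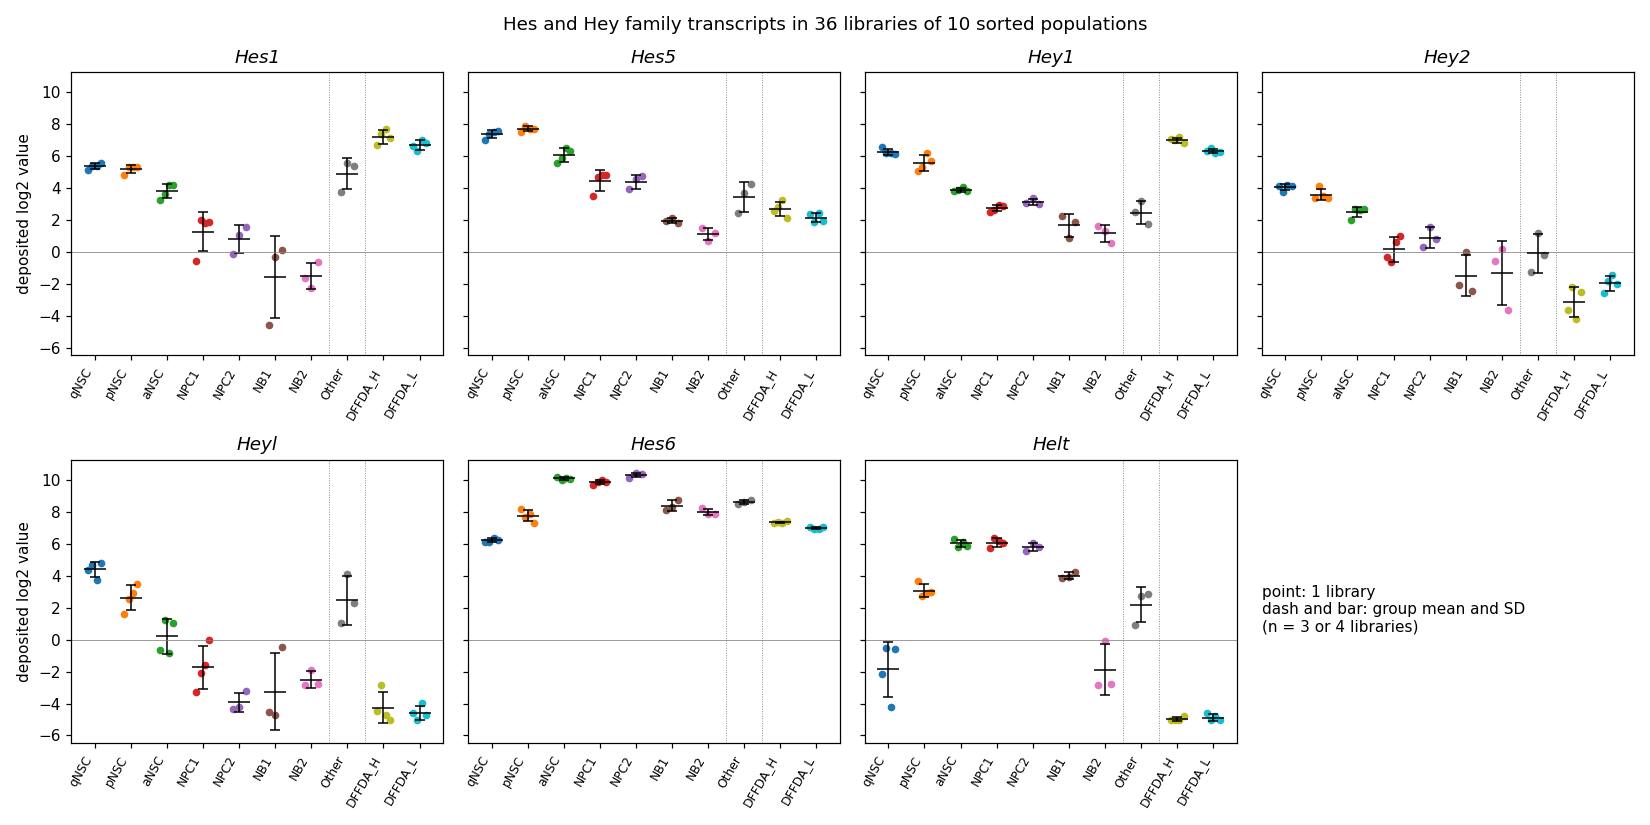
Deposited log2 value (vertical axis) of each of the 7 genes in each library of the 10 populations, with the group mean and SD as a dash and bar (n = 3 or 4) and dotted lines around Other. Hes1, Hes5, Hey1, Hey2 and Heyl have their highest fresh means in qNSC or pNSC, Hes6 and Helt peak in aNSC and NPC at about log2 10 and 6, and Hes1 and Hey1 are highest in culture.

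Hes6 and Helt were higher in pNSC than in qNSC. Of the 7 members, 2 differed at an adjusted p under 0.05 (limma fitted across 28 libraries and 17788 genes, Benjamini-Hochberg), both higher in pNSC, where 14.2% of all genes tested were higher, 8.06% lower and 22.3% changed in either direction. The mean log2 value of Hes6 was 7.77 ± 0.36 across 4 pNSC libraries and 6.22 ± 0.12 across 4 qNSC libraries (SD), a 2.94-fold rise (log2 difference 1.56, SE 0.15, adjusted p = 4.11e-08). That of Helt was 3.07 ± 0.40 for pNSC and -1.86 ± 1.73 for qNSC (adjusted p = 1.74e-06). Its log2 difference of 4.93 depends on how the floor is set, and was 3.07 when values below log2 0 were raised to 0 and 4.16 without qNSC replicate 3. In bulk RNA, fewer cells of a type and less RNA per cell cannot be told apart, here and below. Other markers moved with both genes. The 7 markers of activated stem cells and progenitors summed to 597 to 1225 in pNSC and 187 to 248 in qNSC, and the 9 neuroblast markers to 577 to 1855 in pNSC and 148 to 251 in qNSC. Replicate 1 of pNSC was the highest on both lists and for Hes6 and Helt, and without it the log2 differences were 1.42 for Hes6 and 4.74 for Helt, both still passing. The part of these markers in the differences was not otherwise tested. The repressors Hes1, Hes5, Hey1 and Hey2 overlapped between the 2 groups and did not pass. The 95% intervals of their log2 differences were -1.61 to 1.28 for Hes1, -0.31 to 0.98 for Hes5, -1.32 to -0.07 for Hey1 and -1.79 to 0.84 for Hey2. Hey1 passed without pNSC replicate 3 (adjusted p = 0.0423, range over alternatives 0.0423 to 0.407). Heyl lay lower in every pNSC library, with a log2 difference of -1.77 (SE 0.82), yet missed the threshold (adjusted p = 0.125). It passed when only these 2 groups were fitted (adjusted p = 0.0308), and over all alternatives its adjusted p ran from 0.00403 to 0.307. When libraries were centred on well-expressed genes, the share of higher genes among all calls in this comparison moved to 51.8%, against 63.8% without that centring, and both members kept their call.

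Between aNSC and pNSC, members moved in both directions. Of the 7, 2 were higher and 3 lower in aNSC, where 28.4% of all genes tested were higher and 19.9% lower (48.3% in either direction). Hes6 rose a further 5.02-fold (log2 difference 2.33, SE 0.15, adjusted p = 2.18e-12) and Helt 7.80-fold (2.96, SE 0.61, adjusted p = 0.000247). Hes5 averaged 6.06 ± 0.43 in aNSC and 7.71 ± 0.16 in pNSC, 3.13-fold lower (adjusted p = 0.000114). Hey1 averaged 3.88 ± 0.13 in aNSC and 5.58 ± 0.49 in pNSC, 3.26-fold lower (adjusted p = 5.08e-05). Heyl averaged 0.21 ± 1.096 in aNSC and 2.63 ± 0.79 in pNSC (log2 difference -2.42, SE 0.82, adjusted p = 0.0173). That call was lost without aNSC replicate 1 (adjusted p = 0.0569), aNSC replicate 3 (0.0609) or pNSC replicate 4 (0.0569), with a range of 0.000333 to 0.0609 over all alternatives. Hes1 and Hey2 lay lower in every aNSC library but did not pass, at log2 differences of -1.39 (adjusted p = 0.104) and -1.09 (adjusted p = 0.163). Both passed when only these 2 groups were fitted, at adjusted p = 0.000888 for Hes1 (range over alternatives 0.000888 to 0.213) and 0.00586 for Hey2 (range 0.00402 to 0.299).

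Over the whole distance between aNSC and qNSC, 6 of the 7 members changed, 2 higher and 4 lower in aNSC, where 62.3% of all genes tested changed, 35.3% higher and 27.1% lower. This comparison shares its libraries with those above, and each later comparison shares the libraries of the groups it has in common with another. Hes6 was 14.7-fold higher in aNSC (log2 difference 3.88, SE 0.15, adjusted p = 7.85e-17). Helt was higher by log2 7.89 as deposited, by 6.03 with values below 0 raised to 0 and by 7.12 without qNSC replicate 3. Heyl fell by log2 4.19 (SE 0.82, adjusted p = 8.71e-05), Hey1 by 2.40 (SE 0.30, adjusted p = 1.6e-07) and Hes5 by 1.31 (SE 0.31, adjusted p = 0.000764). Hey2 was lower by a log2 difference of -1.57 (SE 0.64, adjusted p = 0.0355), a call that was lost without any 1 of the 4 aNSC libraries or without qNSC replicate 1, 3 or 4, with adjusted p between 6.22e-05 and 0.0879 over all alternatives. Hes1, 2.95-fold lower with no overlap of libraries, just missed the threshold (adjusted p = 0.0561, range over alternatives 0.000165 to 0.129). It passed when only these 2 groups were fitted (0.000165) or values below 0 were raised to 0 (0.00116), among others. The main fit, here and in the comparisons above, pools the spread of all fresh groups. The SD of Hes1 was 2.57 in NB1 and 1.25 in NPC1, against 0.18 in qNSC and 0.45 in aNSC. The 10 astroglial markers moved alongside, with sums of 1648 to 3250 in aNSC and 24526 to 26345 in qNSC. All 10 stayed at log2 0 or above in every library of both groups. The 8 mural markers summed to 3.74 to 9.72 in aNSC and 124 to 168 in qNSC, the 8 ependymal markers to 13.6 to 27.2 in aNSC and 147 to 176 in qNSC, and the 8 oligodendrocyte markers to 209 to 258 in aNSC and 429 to 716 in qNSC. Activated stem cell markers went the other way, with 3126 to 3562 in aNSC and 187 to 248 in qNSC. In pNSC the lowest and highest mural sums, 25.0 and 149.7, were in the libraries with the lowest and highest Heyl. Of the 8 mural markers, only 2 were at log2 0 or above in every qNSC library and 1 in every pNSC library. Most of the qNSC sum came from Pdgfrb alone, whose level is given below with the Other markers. The part of these markers in the differences was not tested. Centring on well-expressed genes moved the median log2 difference of all genes to 0.04, against 0.19 without it, and the directions given here held.

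In NPC1, 4 repressors were lower again than in aNSC, while Hes6 and Helt did not pass the test. Of the 7 members, 4 were lower in NPC1 and none higher, where 6.48% of all genes tested were lower and 12.7% changed in either direction. Hes5 averaged 4.47 ± 0.63 in NPC1 and 6.06 ± 0.43 in aNSC, 3.02-fold lower (adjusted p = 0.00112). Hey1 was 2.18-fold (adjusted p = 0.0143), Hey2 5.04-fold (adjusted p = 0.0156) and Hes1 5.77-fold lower (adjusted p = 0.0171). The NPC1 library of replicate 1 was the lowest of its group for every member except Hey2, with Hes6 and Helt included. The 10 astroglial markers summed to 354 in that library, against 882 to 955 in the other 3 NPC1 libraries. Without it only Hes5 passed, the log2 difference of Hes1 was -1.91 in place of -2.53, and adjusted p became 0.101 for Hes1, 0.0543 for Hey1 and 0.0573 for Hey2. Hes1 also missed the threshold without aNSC replicate 4 (0.0531) and Hey2 without NPC1 replicate 2 (0.0563). Over all alternatives, adjusted p ran from 0.000129 to 0.101 for Hes1, from 0.000457 to 0.0543 for Hey1 and from 2.56e-05 to 0.0573 for Hey2. The log2 differences of Hes6 and Helt were -0.22 (95% interval -0.52 to 0.08) and 0.05 (95% interval -1.20 to 1.29). Heyl, at -1.95, overlapped between groups and did not pass (adjusted p = 0.125).

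No member separated NPC2 from NPC1 at the threshold. None of the 7 passed with limma, where 0.202% of all genes tested were higher, 1.14% lower and 1.34% changed in either direction, and 2 had an unadjusted p under 0.05. These were Hes6, with a log2 difference of 0.44 and an adjusted p of 0.236, and Heyl, with -2.19 and 0.348. Both passed with library weights, at adjusted p = 0.00553 for Hes6 (range over alternatives 0.00553 to 0.577) and 0.0269 for Heyl (range 0.0269 to 1). The 95% intervals of the remaining log2 differences reached from -2.01 for Hes1 to 2.14 for Hey2. Every NPC2 library lay above every NPC1 library for Hes6, and narrowly so for Hey1 (log2 difference 0.37, adjusted p = 0.813).

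At the NB1 step Hes6 came down together with the repressors. Of the 7 members, 4 were lower in NB1 than in NPC2 and none higher, where 3.88% of all genes tested were lower and 7.67% changed in either direction. Hes6 averaged 8.39 ± 0.33 in NB1 and 10.32 ± 0.15 in NPC2 (n = 3 each), 3.80-fold lower (adjusted p = 6.54e-08). Hes5 averaged 1.95 ± 0.15 in NB1 and 4.41 ± 0.44 in NPC2, 5.48-fold lower (adjusted p = 5.91e-05). Hey1 was 2.73-fold lower (adjusted p = 0.00947), a call lost without NB1 replicate 2 (0.0959) or NPC2 replicate 2 (0.0530), with a range of 2.57e-05 to 0.0959 over all alternatives. Hey2 passed narrowly, with a log2 difference of -2.39 and an adjusted p of 0.0454, and did not pass without NB1 replicate 1 or 3 or without any 1 of the 3 NPC2 libraries (range over alternatives 0.0164 to 0.187). With values below 0 raised to 0 its difference was only -0.89 (adjusted p = 0.126), and without NB1 replicate 2 it was -3.12. The call was also lost with no low-value filter (0.0502) and with only NB1 and NPC2 fitted (0.0548). Helt lay lower in every NB1 library without passing (log2 difference -1.80, adjusted p = 0.126). It passed when only NB1 and NPC2 were fitted (adjusted p = 0.000165, range over alternatives 0.000165 to 0.295). Hes1, with a log2 difference of -2.42, overlapped between the groups (adjusted p = 0.0691) and passed without NB1 replicate 2 (0.0425) or 3 (0.0166), with a range of 0.0021 to 0.554.

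Helt set NB2 apart from NB1. It was the only member of the 7 that passed, lower in NB2, where 14.2% of all genes tested were lower, 10.4% higher and 24.6% changed in either direction. Helt averaged -1.89 ± 1.59 in NB2 and 4.01 ± 0.22 in NB1 (n = 3 each), a log2 difference of -5.90 (SE 0.70, adjusted p = 7.64e-07), or -4.01 with values below 0 raised to 0 and -6.82 without NB2 replicate 2. The 7 markers of activated stem cells and progenitors summed to 313 to 331 in NB2 and 1569 to 1722 in NB1, and their part in the Helt difference was not tested. Hes5 was lower in every NB2 library (log2 difference -0.82, adjusted p = 0.103) and Hes6 overlapped (-0.39, adjusted p = 0.0945). Hes6 passed without NB1 replicate 1 (0.0419) or NB2 replicate 1 (0.0471), and over all alternatives its adjusted p ran from 0.00577 to 0.457. Hes1, Hey2 and Heyl stood 0 to 16 steps above the floor in the NB libraries, and did not pass. With library weights, Heyl (log2 difference 2.00, adjusted p = 0.0156, range over alternatives 0.0156 to 1), Hes5 (adjusted p = 0.000551, range 0.000551 to 0.334) and Hes6 (0.00577) passed as well.

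**Figure D3:**
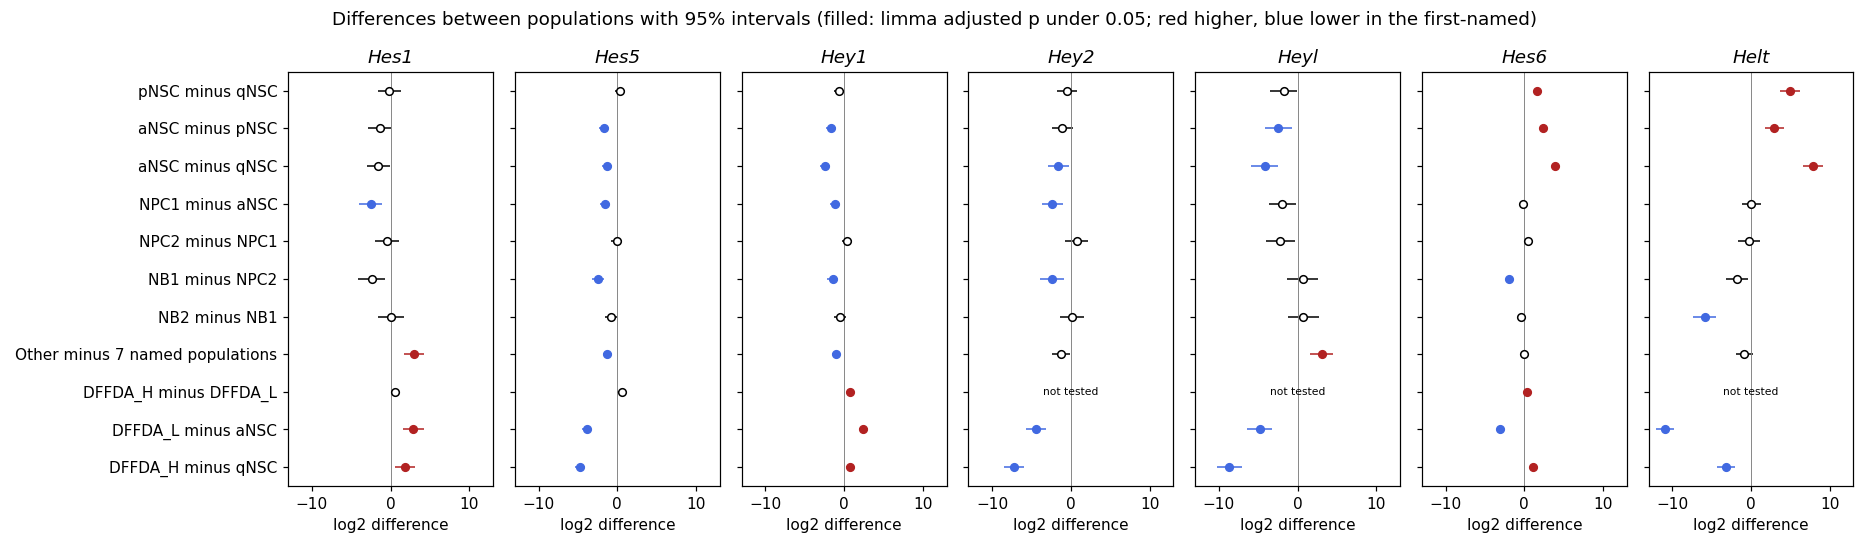
Log2 difference (horizontal axis, 95% interval as a bar) of each of the 7 genes in 11 comparisons, first-named group minus second. Filled points passed at adjusted p under 0.05, red for higher and blue for lower in the first-named group. Hes6 and Helt rise at pNSC and aNSC, the largest tissue value being 7.89 for Helt between aNSC and qNSC.

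The population labelled Other had higher Hes1 and Heyl, and lower Hes5 and Hey1, than the mean of the 7 named populations. Set against the 7 named fresh populations, each with equal weight, 2 members were higher and 2 lower, where 25.9% of all genes tested were higher and 28.4% lower (54.3% in either direction). Hes1 averaged 4.90 ± 0.98 in Other, against a mean of 1.91 over the 7 named populations, 7.96-fold higher (adjusted p = 0.000197). Heyl averaged 2.46 ± 1.55, against -0.60, with a log2 difference of 3.06 (SE 0.71, adjusted p = 0.000803). The floor values of the NPC and NB groups enter this difference, which was 1.38 with values below 0 raised to 0, 3.79 without Other replicate 1 and 2.25 without Other replicate 2. Hes5 averaged 3.46 ± 0.94, against 4.73, 2.41-fold lower (adjusted p = 0.000336). Hey1 averaged 2.46 ± 0.74, against 3.50, 2.04-fold lower (adjusted p = 0.00185). That call was lost without Other replicate 3 (adjusted p = 0.0669), and its range over alternatives was 0.000421 to 0.146. Neither gene was low against the NB groups. Hes5 was 2.43 to 4.26 in Other, above every NB1 and NB2 library, the highest being 2.12 in NB1. The Hey1 mean in Other was above those of NB1 (1.68) and NB2 (1.16), with the ranges of Other and NB1 overlapping. Hey2 just missed the threshold (log2 difference -1.28, adjusted p = 0.0522) and passed without Other replicate 2 (0.0160) or NB2 replicate 3 (0.00826) among others, with a range of 0.000251 to 0.489. The range of Other lay inside that of the 7 named populations for every member, so none was at an extreme there.

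Markers of several further cell types were present in Other. Its 9 neuroblast markers summed to 6257 to 9054, against 6760 to 7422 in NB1 and 148 to 251 in qNSC, its 10 microglial markers to 465 to 919, against 159 to 750 over the 7 named populations, and its 5 erythroid markers to 44.6 to 473, against at most 100.4 there. All 10 endothelial markers were at log2 0 or above in its 3 libraries and summed to 839, 2379 and 1941, while in the 7 named populations at most 2 of 10 reached log2 0 in every library and the sums stayed at or below 14.8. The 8 mural cell markers found, of 10 listed, were all at log2 0 or above and summed to 149, 1967 and 954 in Other. In the named populations the mural sums were 124 to 168 in qNSC, where Pdgfrb alone was at log2 6.84 to 7.30, 25.0 to 149.7 in pNSC and at most 17.4 elsewhere. Other replicate 1 had the lowest endothelial and mural sums and also the lowest Hes1 and Heyl values, 3.78 and 1.01. It was likewise the lowest Other library for every further member except Hey1. The 10 astroglial markers were lowest there too, at a sum of 1165, against 2218 and 3036 in replicates 2 and 3. In the NPC and NB libraries that sum was at most 955. Defining markers at the floor in every library of a group were Cdh5 and Emcn in NPC2, Kdr in NB1, Rgs5 and Higd1b in NPC2 and NB1, and Higd1b in aNSC and NB2. The part of vascular and other cells in the Other values was not tested.

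In culture, 4 of the 7 members were tested between DFFDA_H and DFFDA_L (limma on 8 libraries and 15956 genes), and Hey2, Heyl and Helt were below the low-value filter. Of the 4, 2 were higher in DFFDA_H and none lower, where 21.6% of all genes tested were higher and 43.8% changed in either direction. Hey1 averaged 7.003 ± 0.16 in DFFDA_H and 6.31 ± 0.12 in DFFDA_L (n = 4 each), 1.61-fold higher (log2 difference 0.69, SE 0.10, adjusted p = 9.7e-05). Hes6 averaged 7.35 ± 0.05 in DFFDA_H and 6.99 ± 0.09 in DFFDA_L, 1.28-fold higher (adjusted p = 0.0019). The libraries of the 2 groups did not overlap for either gene. Neither passed when all 36 libraries shared 1 fit, at adjusted p = 0.0746 for Hey1 (range over alternatives 2.47e-05 to 0.0746) and 0.0613 for Hes6 (range 0.000756 to 0.0613). Hes1 and Hes5 leaned the same way with overlapping libraries, at log2 differences of 0.51 (adjusted p = 0.0606) and 0.53 (adjusted p = 0.0982). Hes1 passed without DFFDA_H replicate 1 (0.00681) or DFFDA_L replicate 3 (0.0323), within a range of 0.00681 to 0.683. Hes5 passed without DFFDA_H replicate 4 (0.0324), within a range of 0.0323 to 0.289. The 10 astroglial markers summed to 2471 to 2740 in DFFDA_H and 1821 to 2197 in DFFDA_L, and ependymal markers to 44.9 to 52.2 in DFFDA_H and 12.8 to 17.4 in DFFDA_L. Activated stem cell markers summed to 504 to 674 in DFFDA_H and 706 to 1027 in DFFDA_L, and oligodendrocyte precursor markers to 118 to 144 in DFFDA_H and 167 to 347 in DFFDA_L. The part of these markers in the differences was not tested.

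Whether the contrast in culture resembled that in tissue was tested directly in a fit of all 36 libraries, as the DFFDA_H minus DFFDA_L difference minus the qNSC minus aNSC difference. This comparison was chosen after the values were seen. Hey2, Heyl and Helt were below the low-value filter in culture, so there is no culture contrast to compare and their values in this test, which follow from the tissue difference, are not read. Of the other 4 members, Hes6 gave a positive and Hey1 a negative value, where 24.0% of all genes tested gave a positive, 18.3% a negative and 42.3% either. Hes6 gave 4.24 (SE 0.19, adjusted p = 1.72e-17), since it was slightly higher in DFFDA_H than in DFFDA_L but far lower in qNSC than in aNSC. Hey1 gave -1.71 (SE 0.38, adjusted p = 0.000428), its difference having the same sign in culture and tissue and a smaller size in culture. Hes1 (-1.04, 95% interval -2.86 to 0.77) and Hes5 (-0.78, 95% interval -1.67 to 0.11) did not pass. When only the 4 groups compared were fitted with limma, Hes1 passed (adjusted p = 0.0117, range over alternatives 0.0117 to 0.499).

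In culture Hes1 and Hey1 were higher, and Hes5 lower, than in the fresh stem cell groups compared. Of the 7 members, 2 were higher and 5 lower in DFFDA_L than in aNSC, where 31.4% of all genes tested were higher and 38.7% lower (70.1% in either direction, so that most genes changed). Hes1 averaged 6.70 ± 0.30 in DFFDA_L and 3.81 ± 0.45 in aNSC, 7.43-fold higher (adjusted p = 0.000142). Hey1 averaged 6.31 ± 0.12 in DFFDA_L and 3.88 ± 0.13 in aNSC, 5.40-fold higher (adjusted p = 1.12e-09). Hes5 fell 15.04-fold (adjusted p = 5.81e-13) and Hes6 8.61-fold (adjusted p = 1.61e-19). Hey2, Heyl and Helt were lower by log2 differences of -4.47, -4.80 and -10.91 as deposited, and by -2.50, -0.58 and -6.03 with values below 0 raised to 0, when Heyl no longer passed (adjusted p = 0.200, range over alternatives 2.61e-09 to 0.200). Centring on well-expressed genes moved the median log2 difference of all genes to -0.04, against -0.19 without it, and the directions held.

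Against qNSC, DFFDA_H had 3 members higher and 4 lower, where 37.2% of all genes tested were higher and 36.9% lower (74.2% in either direction). Hes1 was 3.60-fold (adjusted p = 0.00926), Hes6 2.19-fold (adjusted p = 3.62e-09) and Hey1 1.65-fold higher in DFFDA_H (adjusted p = 0.0153). Hes5 averaged 2.68 ± 0.46 in DFFDA_H and 7.37 ± 0.25 in qNSC, 25.8-fold lower (adjusted p = 5.36e-15). Hey2 and Heyl had log2 differences of -7.21 and -8.67, or -4.07 and -4.40 with values below 0 raised to 0. Helt was counted as lower, but both groups were at or near their floors and the floor itself was lower in culture, so its difference was 0.00 with values below 0 raised to 0. Passage, culture medium, dye and sorting all separate the neurosphere libraries from the fresh ones, and these cannot be told apart from a difference between the cells.

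Around the family, 44 other genes of the Notch pathway were in the table and 43 were tested in the fresh populations. The shares of all genes called in each comparison are those given above and are repeated in brackets as higher and lower. In pNSC 6 were higher than in qNSC and 1 lower (14.2% and 8.06% of all genes), with a median log2 difference of -0.05, equal to that of all genes to 2 decimals. The 6 included the ligands Dll3 (log2 difference 3.96), Dll1 (4.60) and Jag1 (2.76) and the glycosyltransferase Mfng (3.54), which modifies Notch receptors. In aNSC 16 were higher and 17 lower than in qNSC (35.3% and 27.1%), with a median of -0.10, against 0.19 for all genes. Those higher included Dll3 (6.77) and Dll1 (6.94) again. The lower ones included 2 genes known as Notch targets or modulators, Nrarp (-1.44, SE 0.18) and Dtx1 (-1.97, SE 0.22), and the non-canonical ligand Dlk1 (-6.16, SE 0.81). Nrarp, a feedback inhibitor induced by Notch, fell also in NPC1 against aNSC (-0.89), in NB1 against NPC2 (-0.91) and in NB2 against NB1 (-1.05). NPC1 had 1 list gene higher and 8 lower than aNSC (6.24% and 6.48%), with the receptor Notch3 (-3.61) and Jag1 (-2.15) among the lower.

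In NB1, none was higher than in NPC2 and 5 were lower (3.78% and 3.88% of all genes), the receptors Notch1 (-1.38) and Notch2 (-1.33) among them. In NB2, 9 were higher and 3 lower than in NB1 (10.4% and 14.2%), the coactivator Maml3 (2.33) having the smallest adjusted p. Other had 7 higher and 20 lower than the 7 named populations (25.9% and 28.4%), with the receptor Notch4 (1.43), known from endothelium, higher and the glycosyltransferase Lfng (-3.41) lower. In culture, 39 were tested, 7 being higher and 8 lower in DFFDA_H than in DFFDA_L (21.6% and 22.3%). Notch3 (0.95) and Dtx1 (1.12) were higher and Dll1 (-0.88) and Dll3 (-0.93) lower. DFFDA_L had 8 list genes higher and 26 lower than aNSC (31.4% and 38.7%), with a median of -0.94, against -0.19 for all genes, and DFFDA_H 11 higher and 18 lower than qNSC (37.2% and 36.9%), with a median of -0.30, against -0.01. Nrarp had the smallest adjusted p in both, with log2 differences of -5.52 and -6.90. In culture it therefore stood with Hes5 and not with Hes1 or Hey1.

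**Figure D4:**
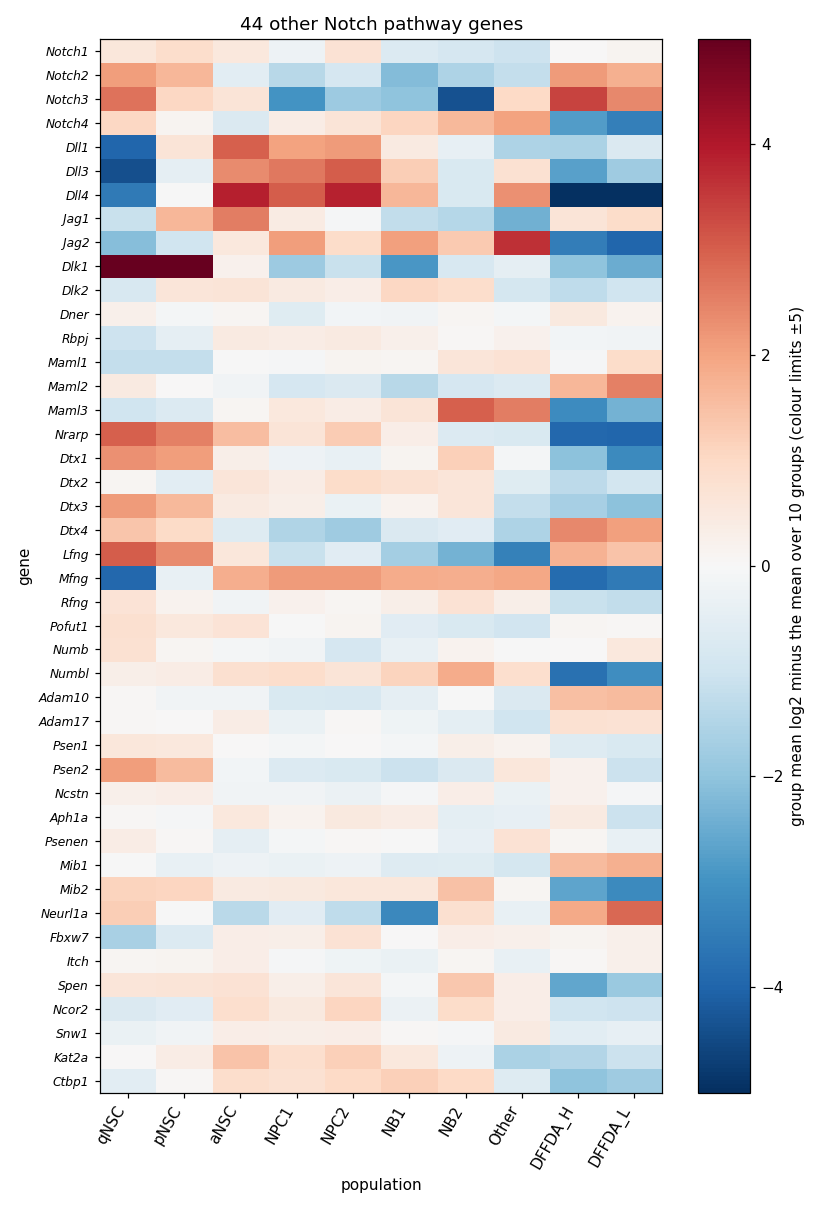
Group mean log2 value of each of 44 other Notch pathway genes (rows) minus that gene's mean over the 10 populations (columns), as colour with limits at -5 and 5. Nrarp, Lfng and Dlk1 are red at the qNSC end, the Delta ligands Dll1, Dll3 and Dll4 in aNSC and NPC, and Nrarp is blue in culture, where it was lower by 6.90 in DFFDA_H than in qNSC.

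Of 5 further genes of the same protein family, 3 were in the table, Hes7 and the circadian repressors Bhlhe40 and Bhlhe41. All 3 were lower in aNSC than in qNSC, where 27.1% of all genes were lower, by log2 differences of -2.91 for Bhlhe40, -1.24 for Bhlhe41 and -4.08 for Hes7, and Bhlhe40 and Bhlhe41 were lower again in NPC1 than in aNSC (-2.51 and -1.35). In culture, Bhlhe41 (1.62, adjusted p = 1.29e-05) and Bhlhe40 (0.68) were higher in DFFDA_H than in DFFDA_L. Hes7, known from the segmentation clock, was near the floor in most groups.

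Hes proteins silence genes through corepressors of the Groucho (Tle) family. Of 9 listed corepressor genes, 8 were found, not all of them from that family (Runx1t1 and Sirt1 are not). Between aNSC and qNSC 3 were higher and 2 lower, a share near the 62.3% of all genes that changed, with Tle1 (1.19, SE 0.14, adjusted p = 4.07e-08) higher and Tle2 (-3.47, adjusted p = 2.42e-08) and Tle4 (-1.21) lower. In NB2, 3 were higher and 1 lower than in NB1 (24.6% of all genes changed), led by Runx1t1 (4.22, adjusted p = 1.24e-07). None was higher and 3 were lower in DFFDA_H than in DFFDA_L (22.3% of all genes were lower), namely Tle4, Runx1t1 and Sirt1. DFFDA_L had 2 higher and 4 lower than aNSC, and DFFDA_H 1 higher and 6 lower than qNSC, where 70.1% and 74.2% of all genes changed. Tle1 was lower in both, by log2 differences of -5.12 and -4.43, and Tle6 higher in both, by 6.97 and 6.23.

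Across the 28 fresh libraries, which share groups and normalization, the members fell into sets by Pearson's r, given as a description. Hes5, Hey1 and Hey2 followed each other most closely, at 0.92 for Hes5 with Hey1, 0.91 for Hes5 with Hey2 and 0.91 for Hey1 with Hey2. Hes1 was closest to Heyl (0.87), and Hes6 to Helt (0.84). Hes6 ran against Heyl (-0.61), and Helt bore almost no linear relation to Hes5 (0.04). Over the genes tested, with predicted gene models, Rik clones and symbols turned into dates left out, the gene most like Hes1 was Id3 (0.96), another repressor of bHLH factors. Hes5 was most like the glutamate transporter Slc1a3 (0.98), followed by Acsbg1, Cbs, Ntsr2 and Mmd2, with Slc1a3, Ntsr2 and Id3 also on the astroglial marker list. Hes6 was most like Serbp1 (0.98), followed by Eif5a, Ncl, Cnbp and Gar1. Hey1 was most like Cbr3 (0.97), Hey2 like Tmie (0.94), Heyl like the growth factor Tgfb2 (0.94) and Helt like Pdlim1 (0.95), whose list also held the replication gene Mcm3 (0.94).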

How the data were processed

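Per the labels, poly(A) RNA was amplified with a SMARTer Ultra Low kit, which does not mark strand, tagged by Nextera XT and read on a NextSeq. HISAT2, featureCounts, limma, cutadapt, Trimmomatic and FastQC are listed with GRCm38 (mm10) in the submitters' processing notes, without settings. The values are log2, as deposited by the authors, and their unit was worked out from the values because no header names it. The columns share almost 1 distribution, with medians of 3.53 to 3.56, which resembles quantile normalization, and such scaling can shift genes between populations of different RNA content. The 1770 blank lines were dropped.

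Groups came from the labels. Genes that reached log2 0 in 3 or more libraries of any 1 group were fitted with limma 3.58.1 in R 4.3.3 (trend and robust settings), with Benjamini-Hochberg adjustment over 17788 genes for the 28 fresh libraries, 15956 for the 8 neurosphere libraries and 19158 for all 36. Each test was called at an adjusted p under 0.05. Coordinates came from GENCODE M21 (GRCm38), which held 19863 of the 19909 identifiers, and promoters from RefSeq. The 7 members and all lists were chosen with earlier results of these data known. List genes were named when called, from the 8 with the smallest adjusted p in a comparison, and for each member the 5 genes with the highest Pearson's r were found. Where a comparison or alternative was chosen after seeing the data, the text says so.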

Additional observations from a re-analysis of the deposited data

Results flagged for a closer look

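Of 42 sets of 4 libraries (1 member in 1 group), 5 had a library far from the other 3 by Dixon's test, which chance alone gives in about 1 of 20. They were the lowest pNSC library for Hes1 (log2 4.83), the lowest NPC1 library for Hes1 (-0.60), the lowest NPC1 library for Hes5 (3.53), the lowest aNSC library for Hey2 (2.02) and the highest DFFDA_H library for Helt (-4.79, 1 step above the floor). The other 3 DFFDA_H libraries share 1 floor value for Helt, so any other value in the remaining library would have stood out, and that case is not set against the chance rate. Both NPC1 values come from replicate 1, the library whose removal leaves 1 of the 4 members called between NPC1 and aNSC.

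For Hes6 and Hey1 the DFFDA_H minus DFFDA_L difference departed from the qNSC minus aNSC difference in a test of the difference itself. The gap was 4.24 for Hes6 and -1.71 for Hey1, with adjusted p-values given above.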

How the results depend on the processing

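The alternatives were no filter or a filter at log2 2, centring on a trimmed mean, library weights, only the groups compared in the fit, values below 0 set to 0, the replicate block and leaving out each library. Centring on genes with a mean log2 of at least 4 was chosen after seeing the data. The number of members called moved by over 1.5 times in these cases. With library weights it was 2 for NPC2 against NPC1 and 4 for NB2 against NB1. With all 36 libraries fitted it was 0 for DFFDA_H against DFFDA_L. Leaving out 1 library gave 1 to 4 for NPC1 against aNSC (1 without NPC1 replicate 1), 2 to 4 for NB1 against NPC2 (2 without NPC2 replicate 2) and 1 to 2 for NB2 against NB1 (2 without replicate 1 of NB1 or of NB2).

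Called changes kept their sign under every alternative, except Helt for DFFDA_H against qNSC, 0.00 with values below 0 set to 0. Uncalled log2 differences changed sign as follows. With values below 0 set to 0, Heyl was 0.00 for NPC2 against NPC1, NB1 against NPC2 and NB2 against NB1, and Hes1 -0.034 for NB2 against NB1. With library weights, Heyl was -0.69 for NB1 against NPC2, Hey2 -0.13 for NB2 against NB1 and Hes6 0.0037 for Other. Leaving out 1 library gave -0.049 to 0.17 for Helt in NPC1 against aNSC, -0.38 to 0.18 for Hes5 and -1.07 to 0.038 for Hes1 in NPC2 against NPC1, -0.72 to 1.42 for Heyl in NB1 against NPC2, -0.57 to 1.34 for Hey2 and -1.39 to 0.94 for Hes1 in NB2 against NB1, and -0.10 to 0.038 for Hes6 in Other.

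Labels give groups the same replicate numbers, but deviations of same-numbered libraries correlated at -0.14 to 0.19. In no comparison was every pair over 0.1, so the numbers were not taken as pairs. As a hint from the data, all 8 libraries correlated best with their own number for pNSC against qNSC and aNSC against pNSC and all 6 for NPC2 against NPC1, but 6 of 8 for aNSC against qNSC and NPC1 against aNSC, 4 of 8 for DFFDA_H against DFFDA_L and 0 to 2 in the rest. With the replicate block, 2 members passed for NB2 against NB1, Hes5 at adjusted p = 0.0470 being the addition. Hes1 then also passed for aNSC against pNSC (0.0344), aNSC against qNSC (0.0141), NB1 against NPC2 (0.0144) and DFFDA_H against DFFDA_L (0.0112), and Hey2 for Other (0.0494). For NPC2 against NPC1, the log2 difference of Hes5 changed sign under the block, to 0.0031, and did not pass.

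The number of all genes called was 3959 for pNSC against qNSC, but 2234 with library weights, 1511 with only these groups and 2429 without pNSC replicate 1. For NPC1 against aNSC it was 2262, but 5983 with weights, 5080 with only these groups and 1335 without NPC1 replicate 1. For NPC2 against NPC1 it was 239, but 2180, 578 and, without 1 library, 80 to 193. For NB1 against NPC2 it was 1364, but 6234, 2888 and 764 to 1227. For NB2 against NB1 it was 4371, but 9015 and 6690, and for DFFDA_H against DFFDA_L 6995, but 3234 with all 36 libraries. The causes were not tested. Heyl and Helt were at the floor most often, in 6 and 7 of 36 libraries. These include culture libraries, which had the fewest genes at the floor, 362 to 604 in DFFDA_H and 365 to 515 in DFFDA_L. The part of depth in these floor values was not tested.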
